A study of Mus musculus with 32 samples.

Results

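The mouse genes Zfp500 to Zfp999 encode zinc finger proteins, and 179 of them were described across all 4 groups of the study. They were chosen by symbol: every row of the array whose symbol in the platform annotation was Zfp followed by 3 digits from 500 to 999 and nothing after. Of 181 such rows, 179 were kept among 22206 rows, which held 19505 genes with a symbol. Where a symbol had several rows, the row was selected on its mean over the 32 arrays. This touched 2 genes, Zfp932 (mean 10.83 for the row kept, 7.52 for the other) and Zfp781 (7.36 and 6.77). The family was also taken up with results of these data known, so its counts are a description. RNA came from 8 mm punches of skin of NC/Nga mice, a strain used as a model of dermatitis. The groups were HDM back skin, sham back skin, HDM ear and sham ear, with 8 mice each. The labels do not spell out HDM, which marks an agent that induces dermatitis, and do not describe the sham treatment. All mice were of 1 strain, and the labels name no transgene or deletion. The punches were whole tissue, in which fewer cells of a type and less RNA per cell cannot be told apart.

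A zinc finger of the C2H2 kind is a short loop held by a zinc ion, and rows of such fingers read DNA bases. Many genes with a number above 500 encode proteins that carry a KRAB domain, which recruits the corepressor Trim28 and through it enzymes that silence chromatin, often at endogenous retroviruses. KRAB zinc finger genes arose by repeated duplication and lie in clusters of close relatives, so probes of single members may pick up a neighbour's RNA and the value of a single gene is uncertain. Others in the numbered series are solitary, conserved genes with tasks of their own, such as Zfp750 in the epidermis, Zfp516 and Zfp521 in fat and its precursors, or Zfp598 at stalled ribosomes.

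The starts of 3 genes are shown because their values recur below: the neighbours Zfp712 and Zfp759, which were lower in HDM skin at both sites, and Zfp949, which had the widest ear difference in the family. Each is the 300-base RefSeq promoter of assembly GRCm38.p6, 250 bases before and 50 after the annotated start, 5′ to 3′. Zfp712 lies at chr13:67061121-67061420 on the minus strand, Zfp759 at chr13:67127978-67128277 on the plus strand and Zfp949 at chr9:88547770-88548069 on the plus strand. Capitals mark matches to ACTACA, the core of the site bound by ZNF143 with THAP11, read here as its reverse complement TGTAGT, and to the ETS-factor motif CCGGAAG.
Zfp712: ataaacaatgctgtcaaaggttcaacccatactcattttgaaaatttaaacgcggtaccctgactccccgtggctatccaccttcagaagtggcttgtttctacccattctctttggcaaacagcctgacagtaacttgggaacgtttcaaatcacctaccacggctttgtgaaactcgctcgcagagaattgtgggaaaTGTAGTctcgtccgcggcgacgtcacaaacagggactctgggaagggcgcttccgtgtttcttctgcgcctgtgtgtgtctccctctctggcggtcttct
Zfp759: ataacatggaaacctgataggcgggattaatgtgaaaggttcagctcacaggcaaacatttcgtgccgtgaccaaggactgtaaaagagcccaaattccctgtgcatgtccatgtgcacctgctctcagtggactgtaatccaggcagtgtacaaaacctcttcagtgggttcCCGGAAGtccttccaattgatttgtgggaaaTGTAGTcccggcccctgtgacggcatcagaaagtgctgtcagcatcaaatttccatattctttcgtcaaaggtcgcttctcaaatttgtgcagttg
Zfp949: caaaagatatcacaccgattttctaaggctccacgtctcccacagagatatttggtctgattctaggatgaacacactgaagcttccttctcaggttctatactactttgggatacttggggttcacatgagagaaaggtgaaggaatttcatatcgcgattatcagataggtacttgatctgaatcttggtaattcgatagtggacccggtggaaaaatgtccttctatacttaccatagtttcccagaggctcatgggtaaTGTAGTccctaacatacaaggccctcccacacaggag
All 3 have TGTAGT within a similar stretch. After these letters had been seen, GGGNAATGTAGT was searched on both strands: it stood in 12 of 181 promoters of the family (6.63%), the 3 printed ones included, against 181 of 32851 promoters of the same length in the whole table (0.551%). Promoters were at hand for 151 of the 179 genes, 26 of which had more than 1. The shorter core ACTACA, which overlaps it, was in 16.0% of the family's promoters and in 10.3% of all. It is in the 3 printed promoters but not in those of Zfp976, Zfp971, Zfp667 and Zfp503, whose values also recur below. The printed promoters thus do not stand for the genes that differed. The ETS motif CCGGAAG was in 17.1% and 8.86%, the SP-KLF motif GGGCGG in 45.9% and 35.7%, and the YY1 motif AAGATGG in 7.74% and 6.34%. The TATA motif TATAAA was rarer in the family, at 4.42% against 13.6%. The family's promoters had a median of 14 CpG dinucleotides, against 7 over all. Genes called lower in HDM ear held GGGNAATGTAGT in 5 of 62 promoters, the 3 printed ones among them, and the other genes in 7 of 119. Letters that match are not evidence of binding.

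Array medians lay between 5.91 and 6.26, and each array correlated at 0.975 to 0.994 with the mean of the rest of its group. Values are log2 levels, which ran from 1.71 to 19.93. The background of an array, the median of its 5222 negative control rows, lay between 4.43 and 5.38. Earlier results of these data set 2 sham back arrays, mice 1 and 2, and 4 HDM ear arrays, mice 1, 2, 5 and 7, apart from the rest of their groups, and results that rest on them are also given without them. Mouse numbers recur at both sites, and the labels do not say whether a number is 1 animal. Epidermal markers were bright: the mean of 5 basal keratinocyte markers was between 16.20 and 17.40 on every array. Of the other cell markers, neutrophil genes averaged 11.48 to 16.82 in HDM ear and 4.71 to 6.75 in sham ear, and 13.12 to 14.08 in HDM back and 6.35 to 10.95 in sham back.

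The family was moderately expressed. Of the 179 genes, 110 were above background on all 32 arrays, 57 on some and 12 on none. The mean level over the arrays was lowest for Zfp663 at 2.68, had a median of 7.00, and was highest for Zfp971 at 13.55; the median over all rows was 6.20.  Levels of different genes come from different probes and do not rank their RNA.

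Where Zfp genes passed the test, they were mostly lower in HDM skin than in sham skin, while 102 of the 179 passed at neither site. In ear, 62 of 179 were called lower and 6 higher by limma at an adjusted p under 0.05, against 15.5% and 16.4% of all rows called lower and higher. In back skin 24 were lower and 1 higher, against 8.56% and 6.18% of all rows. The median log2 difference, HDM minus sham, was -0.37 in ear, against -0.02 over all rows, and -0.25 in back skin, against 0.01. Negative differences made up 81.0% of the family in ear and 76.5% in back skin, against 52.6% and 49.3% of all rows. With genes below background in 1 group set at their bound and those below in both left out, the medians were -0.44 over 160 genes in ear and -0.28 over 166 in back skin. The family's calls in ear fell to 17 lower and 1 higher without HDM ear mice 1, 2, 5 and 7, against 4.2% and 7.32% of all rows there, and 16 of those 17 were among the 62. The median was then -0.23, against -0.03 over all rows. That fit has 4 HDM ear arrays. Without sham back mice 1 and 2, 18 genes were lower and 1 higher in back skin, against 7.92% and 6.03% of all rows.

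**Figure D1:**
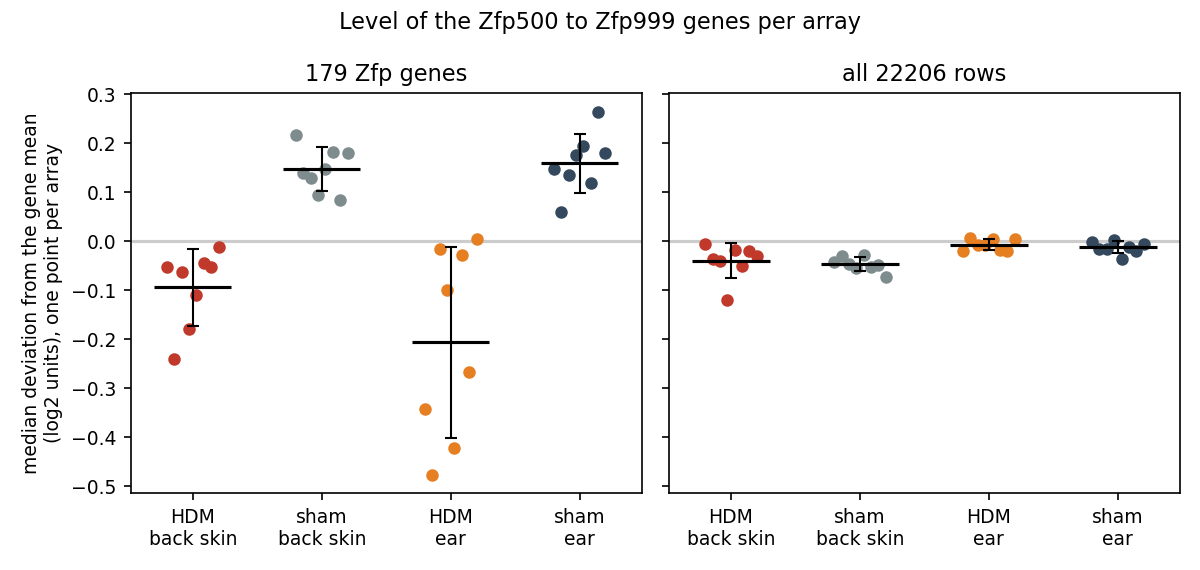
Median deviation of each array from each gene's mean over 32 arrays, in log2 units, for the 179 Zfp genes (left) and all 22206 rows (right); points are arrays, the long bar is the group mean and the error bar its SD (n = 8). HDM back arrays lie between -0.24 and -0.01 and sham back arrays between 0.09 and 0.22, and HDM ear arrays spread from -0.48 to 0.00, against 0.06 to 0.26 in sham ear.

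The shift could be followed on each array as the median deviation of the 179 genes from their own means. It was lowest at -0.24, with a median of -0.06 and a highest value of -0.01, in HDM back skin, against 0.09, 0.14 and 0.22 in sham back skin. It was -0.48, -0.18 and 0.00 in HDM ear, against 0.06, 0.16 and 0.26 in sham ear. HDM and sham arrays did not overlap at either site. Over all rows the same measure stayed between -0.12 and 0.01 on the 32 arrays. Within HDM ear the deviations were -0.34, -0.48, -0.42 and -0.27 for mice 1, 2, 5 and 7, and -0.02, -0.10, -0.03 and 0.00 for mice 3, 4, 6 and 8. The first 4 are the arrays set apart above. The mean of 6 differentiated keratinocyte markers on them was 13.11, 12.61, 12.60 and 13.53, against 15.43, 15.27, 15.48 and 15.44 on the other 4 HDM ear arrays and 15.87 to 16.62 in sham ear. These 6 genes did not move together between HDM ear and sham ear. Flg2 (-6.79), Krt77 (-4.81), Lor (-1.76) and Dsg1a (-1.49) were called lower. Krt1 was called higher (2.055), and Krt10 was not called (0.01). Other marker lists set the same arrays apart. On mice 1, 2, 5 and 7 neutrophil markers averaged 15.82 to 16.82 and T cell markers 8.43 to 9.28, and on mice 3, 4, 6 and 8 they averaged 11.48 to 13.31 and 6.91 to 7.38. Macrophage markers were at 12.61 to 13.25 and 11.16 to 12.38 on these sets, cell cycle genes at 10.85 to 11.22 and 9.81 to 10.30, and Mbp, the measured Schwann cell marker, at 7.31 to 7.92 and 9.57 to 10.39. The T cell markers went both ways between HDM ear and sham ear. Icos (4.18), Cd2 (1.56) and Cd4 (1.34) were called higher, while Cd3e (-0.40) and Cd3g (-0.38) were not called. Other tissue markers moved between the ear groups too. Macrophage markers averaged 11.16 to 13.25 in HDM ear and 9.81 to 10.22 in sham ear, cell cycle genes 9.81 to 11.22 and 8.44 to 8.96, skeletal muscle genes 8.17 to 10.40 and 11.25 to 13.38, and adipocyte genes 6.63 to 8.37 and 9.04 to 9.75. In back skin differentiated keratinocyte markers averaged 13.33 to 15.64 in HDM and 16.69 to 17.65 in sham, adipocyte genes 10.76 to 11.62 and 11.77 to 12.90, and cell cycle genes 10.32 to 10.97 and 8.90 to 10.21. Of the 6 keratinocyte markers 4 were called lower there, Krt77 by -9.93. Krt1 (0.175) and Dsg1a (-0.86) were not called. Mbp was lower in HDM at both sites, by -1.40 in back skin (adjusted p = 0.0224) and -2.04 in ear (adjusted p = 0.000308). Every measured marker gene of these lists was above background on at least 1 array of each group, except 2 neutrophil genes in sham ear. The part of these cell types in the result was not tested.

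The lower-numbered relatives moved alike. Of 151 genes named Zfp1 to Zfp499 without a suffix, 54 were lower and 6 higher in HDM ear, against 15.5% and 16.4% of all rows. In HDM back skin 24 were lower and 1 higher, against 8.56% and 6.18%. Their medians were -0.39 in ear and -0.27 in back skin, against -0.02 and 0.01 over all rows. These genes share all arrays with the family described here.

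The share of genes called lower in ear differed with level. It was 5 of 38 genes with a mean under 5 (13.2%), 26 of 90 between 5 and 8 (28.9%), 15 of 31 between 8 and 10 (48.4%) and 16 of 20 at 10 or more (80.0%). Over all rows in the same bands it was 4.72%, 20.4%, 23.8% and 25.9%. With HDM ear mice 1, 2, 5 and 7 left out, the counts were 3, 6, 3 and 5 genes, or 7.90%, 6.67%, 9.68% and 25%, against 1.11%, 5.62%, 6.68% and 7.1% of all rows. In back skin the family's shares were 5.26%, 17.8%, 6.45% and 20.0%, against 1.62%, 11.6%, 14% and 15.3% of all rows, with no order by level. The brightest band holds 20 genes.

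**Figure D2:**
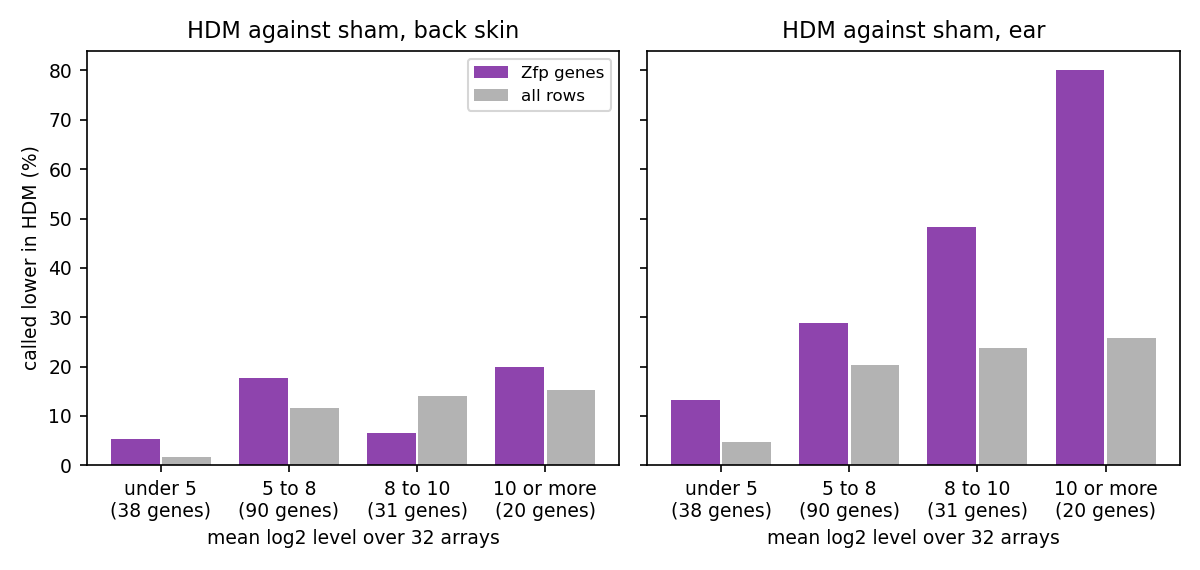
Share of genes called lower in HDM than in sham (percent, adjusted p under 0.05) by mean log2 level over 32 arrays, in back skin (left) and ear (right), for Zfp genes (purple) and all rows (grey). In ear the Zfp share is 80.0% among the 20 genes at 10 or more, against 25.9% of all rows in that band.

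In ear, the widest differences among the measured genes were those of Zfp949, Zfp976 and Zfp971, whose roles are not described here. Zfp949 had a lowest value of 8.48, a median of 9.67 and a highest value of 10.83 in HDM ear, against 11.27, 11.46 and 12.31 in sham ear. No HDM ear array reached the sham ear arrays, and the difference was -1.94 ± 0.31 (SE; adjusted p = 9.83e-06). Zfp976 was at 4.15, 4.40 and 5.50 in HDM ear, where 2 of 8 arrays were above background, against 5.77, 6.45 and 7.22 in sham ear. Its groups did not overlap, with a difference of -1.87 ± 0.26 (adjusted p = 1.79e-06), whose size is uncertain near background. Zfp971, the brightest member, had 11.37, 12.26 and 13.66 in HDM ear, against 13.60, 13.92 and 14.31 in sham ear, a difference of -1.55 ± 0.26 (adjusted p = 2.15e-05). Its highest HDM ear array lay above the lowest sham array. Zfp931 (-1.44 ± 0.26, adjusted p = 7.22e-05) and Zfp788 (-1.43 ± 0.36, adjusted p = 0.00224) were also called. In all 7 genes had every HDM ear value below every sham ear value, against 2.66% of all rows: Zfp609, Zfp740, Zfp760, Zfp809, Zfp871, Zfp949 and Zfp976. None had every HDM ear value above, against 4.99% of all rows. When HDM ear mice 1, 2, 5 and 7 were left out, Zfp949 differed by -1.12, Zfp976 by -1.57 and Zfp971 by -0.71, each still called, while Zfp931 (-0.57, adjusted p = 0.0544) and Zfp788 (-0.96, adjusted p = 0.116) were not.

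**Figure D3:**
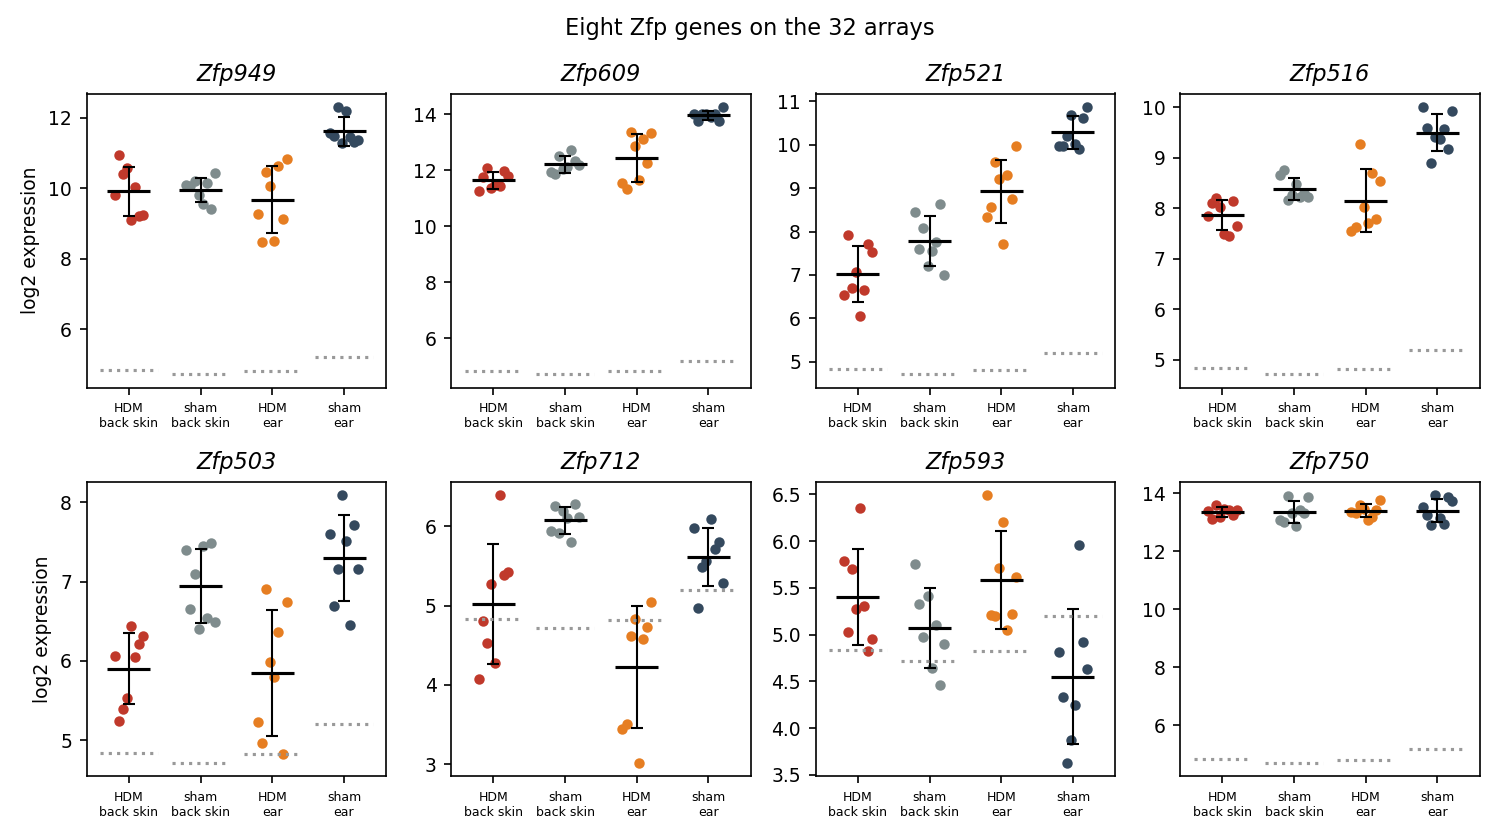
Log2 expression of 8 Zfp genes on the 32 arrays; points are arrays, long bars are group means, error bars are SD (n = 8) and dotted lines the group's mean background. Zfp949 and Zfp609 are lower on every HDM ear array than on any sham ear array, whereas Zfp750 averages 13.35 to 13.40 in all 4 groups.

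In back skin the widest fall was that of Zfp667, with 6.48, 7.20 and 7.73 in HDM back, against 8.21, 8.40 and 9.16 in sham back. The groups did not overlap, and the difference was -1.33 ± 0.24 (adjusted p = 0.000219). In ear it was -0.53 ± 0.24 (adjusted p = 0.0946), and its highest HDM ear array stood above the highest sham ear array. Zfp759 (-1.06 ± 0.29, adjusted p = 0.0101), Zfp551 (-1.05 ± 0.21, adjusted p = 0.000756) and Zfp563 (-1.03 ± 0.25, adjusted p = 0.00467) also fell in back skin. Zfp551 was near background, above it on 2 of 8 HDM back arrays and 7 of 8 sham back arrays. In ear it was called lower (adjusted p = 0.00231) from 0 of 8 HDM ear and 5 of 8 sham ear arrays above background, a call lost without HDM ear mice 1, 2, 5 and 7. Its sham ear mean of 5.12 lay under the group's mean background of 5.20, so no fold is given. Genes lower without overlap in back skin were 4 of 179, a share near the 2.33% of all rows: Zfp644, Zfp667, Zfp870 and Zfp965. No gene was higher without overlap, against 1.83% of all rows.

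The differences at the 2 sites rest on separate arrays. Each gene's spread was pooled over the 4 groups, so the calls at the 2 sites are not independent. Of the 24 genes lower in back skin, 16 were lower in ear too, which is 66.7% of the back list and 25.8% of the ear list, against 51.2% and 28.3% of all rows. These shares have unlike base rates. In ear 34.6% of the family and 15.5% of all rows were lower, and in back skin 13.4% and 8.56%. In ear, 4 of the 16 were still called without HDM ear mice 1, 2, 5 and 7, namely Zfp563, Zfp712, Zfp740 and Zfp760. The 16 were Zfp503, Zfp551, Zfp563, Zfp644, Zfp712, Zfp740, Zfp748, Zfp759, Zfp760, Zfp768, Zfp781, Zfp790, Zfp799, Zfp870, Zfp943 and Zfp965. No gene was called in opposite directions. Negative differences at both sites were found for 117 genes, these included, and positive ones for 16 genes. Pearson's correlation of the 2 effects was 0.52 over the 179 genes and 0.63 over all rows, as a description in which genes share probes and arrays.

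**Figure D4:**
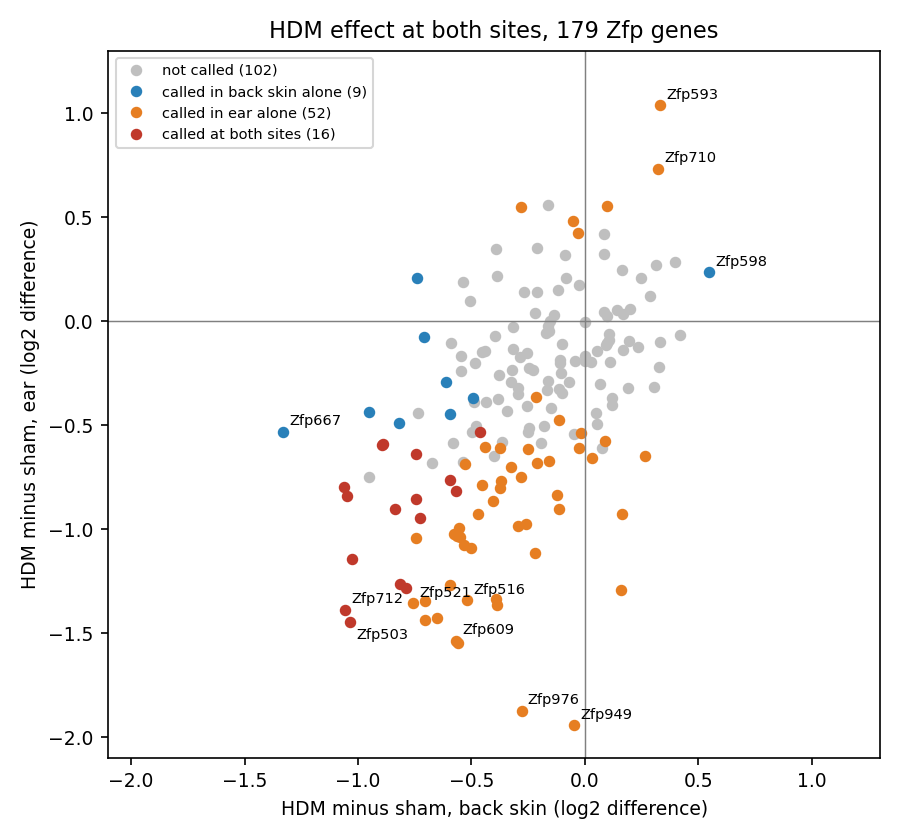
HDM minus sham difference in ear against that in back skin, in log2 units, 1 point per Zfp gene and coloured by call. Of the 179 points, 117 lie to the lower left, below 0 on both axes; Zfp949 lies at -1.94 in ear and -0.05 in back skin, and Zfp667 at -0.53 and -1.33.

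Zfp712 and Zfp759, whose promoters are printed above, were among the 16. Zfp712 had 3.02, 4.60 and 5.04 in HDM ear, against 4.97, 5.64 and 6.09 in sham ear, with 1 and 7 of 8 arrays above background. The ear difference was -1.39 ± 0.28 (adjusted p = 0.00018). In back skin it had 4.08, 5.04 and 6.39 in HDM, against 5.80, 6.12 and 6.28 in sham, a difference of -1.05 ± 0.28 (adjusted p = 0.0079). Its highest HDM back array exceeded all sham arrays. Zfp759 had 4.28, 5.77 and 6.83 in HDM ear, against 5.56, 6.39 and 7.34 in sham ear, a difference of -0.80 ± 0.29 (adjusted p = 0.0309) that was not called without HDM ear mice 1, 2, 5 and 7.

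Neighbours were compared next, since KRAB zinc finger genes lie in clusters. RefSeq positions gave 12 groups of at least 4 family members with consecutive starts no more than 500000 bases apart, holding 77 of the 179 genes. In them 31 of 77 genes were lower in HDM ear, with a median of -0.41, and outside them 31 of 102, with a median of -0.37, against 15.5% of all rows. These counts were 10 of 77 and 7 of 102 without HDM ear mice 1, 2, 5 and 7, against 4.2% of all rows. In back skin 10 of the 77 and 14 of the 102 were lower, against 8.56% of all rows. Zfp712, Zfp759, Zfp595, Zfp953, Zfp748 and Zfp738 form a group of 6, of which 5 were lower in ear and 3 in back skin. Its medians of -0.89 and -0.65 were the lowest of the 12 groups at each site. In the group of 14 genes that runs from Zfp677 to Zfp945, 8 were lower in ear. With the same 4 arrays left out, 2 genes remained called in the group of 6 (Zfp595 and Zfp712) and 2 in the group of 14 (Zfp760 and Zfp944). The 5 genes from Zfp980 to Zfp981 differed the other way in the median, at 0.19 in ear, with 1 lower (Zfp992) and 1 higher (Zfp600). Whether probes are shared within a group was not tested.

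**Figure D5:**
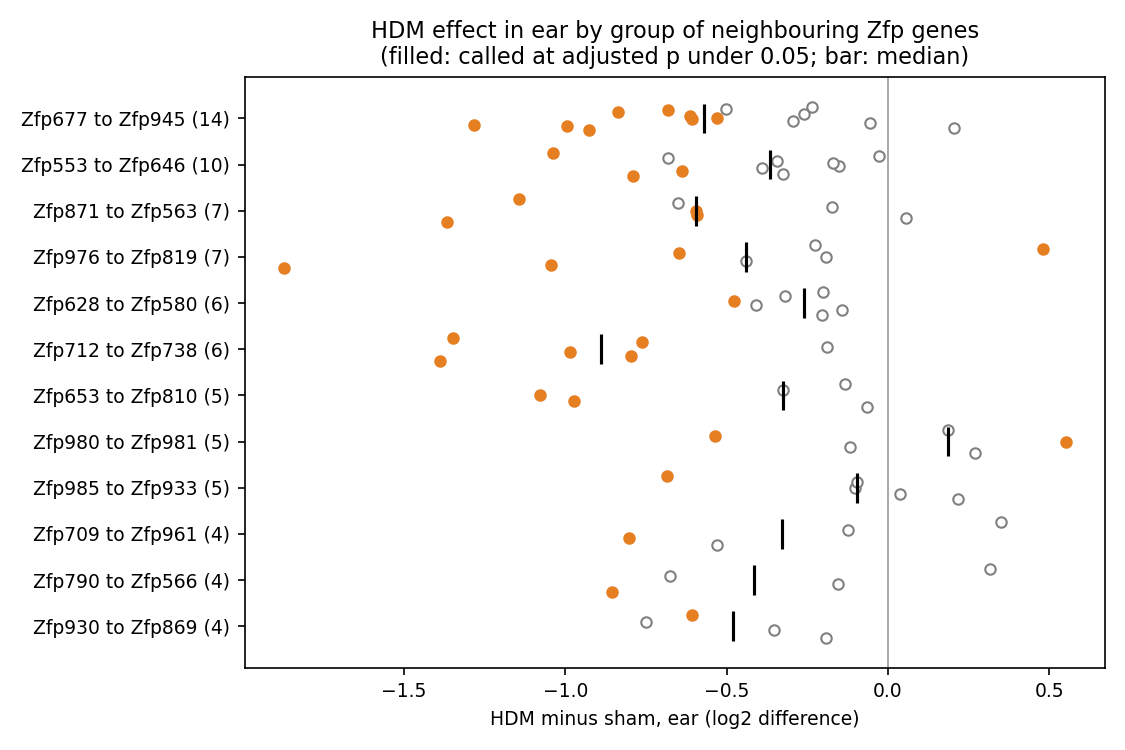
HDM minus sham difference in ear (log2 units) for the 77 Zfp genes in 12 groups of neighbours, named by first and last gene with the number of genes; filled points were called at an adjusted p under 0.05 and the bar is the group's median. The group from Zfp712 to Zfp738 has a median of -0.89 and that from Zfp980 to Zfp981 a median of 0.19.

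Zfp750, an epidermal gene that acts downstream of p63 and is needed for keratinocytes to mature, did not pass the test in any comparison. It averaged 13.35 ± 0.16 in HDM back and 13.35 ± 0.38 in sham back (SD, n = 8 each), and 13.39 ± 0.22 in HDM ear and 13.40 ± 0.41 in sham ear. The 95% interval of the difference ran from -0.32 to 0.32 in back skin and from -0.33 to 0.32 in ear.

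Genes tied to fat and its precursors fell in ear. Zfp516, which takes part in the brown fat programme, had 7.56, 7.91 and 9.27 in HDM ear, against 8.89, 9.50 and 10.01 in sham ear, a difference of -1.34 ± 0.20 (adjusted p = 3.99e-06). The highest HDM ear array passed the lowest sham array. In back skin its difference was -0.52 ± 0.20 (adjusted p = 0.0775). Zfp521, which binds EBF factors and holds back adipocyte commitment, had 7.71, 8.97 and 9.96 in HDM ear, against 9.90, 10.11 and 10.87 in sham ear, a difference of -1.36 ± 0.29 (adjusted p = 0.000367). In back skin it was -0.76 ± 0.29 (adjusted p = 0.0721). Zfp638, an adipocyte cofactor that also helps the HUSH complex to silence retroviral DNA, had 9.53, 10.53 and 11.77 in HDM ear, against 10.90, 11.64 and 12.21 in sham ear (-1.02 ± 0.25, adjusted p = 0.0014). In back skin its difference was -0.58 ± 0.25 (adjusted p = 0.117). With the same 4 HDM ear arrays left out, Zfp516 was still called at -0.86, whereas Zfp521 (-0.77, adjusted p = 0.112) and Zfp638 (-0.38, adjusted p = 0.358) were not. All 5 adipocyte markers were called lower in HDM ear. In HDM back skin 3 of the 5 were called lower, and Fabp4 (-0.27) and Cidec (-0.74) were not called. Between the sham groups all 5 were lower in ear, while Zfp521 (2.50) and Zfp516 (1.11) were higher there and Zfp638 (-0.39) was not called. The part of fat cells in these differences was not tested.

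Zfp503 and Zfp703 are the mouse members of the NET family of repressors. Zfp503 had 4.82, 5.90 and 6.91 in HDM ear, against 6.45, 7.34 and 8.09 in sham ear, a difference of -1.45 ± 0.28 (adjusted p = 0.000124). In back skin it had 5.24, 6.06 and 6.44 in HDM, against 6.40, 6.88 and 7.49 in sham (-1.04 ± 0.28, adjusted p = 0.00983). The groups touched only at their edges in back skin and overlapped in ear, where the call was lost without HDM ear mice 1, 2, 5 and 7 (-0.80, adjusted p = 0.0656). Zfp703 differed by -0.29 ± 0.23 in ear and -0.33 ± 0.23 in back skin, neither called.

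Among chromatin cofactors, Zfp609, which associates with the cohesin loader Nipbl, was 11.32, 12.57 and 13.38 in HDM ear, against 13.76, 14.01 and 14.27 in sham ear. The groups did not overlap, and the difference was -1.54 ± 0.23 (adjusted p = 5.56e-06), against -0.57 ± 0.23 in back skin (adjusted p = 0.102). Its paralog Zfp608 was called in back skin (-0.82 ± 0.22, adjusted p = 0.00972), not in ear (-0.49 ± 0.22, adjusted p = 0.0882). Zfp644, a partner of the histone methyltransferases G9a and GLP, was 10.09, 10.35 and 10.61 in HDM back, against 10.64, 11.22 and 11.49 in sham back, without overlap. Its difference was -0.84 ± 0.21 in back skin (adjusted p = 0.00575) and -0.90 ± 0.21 in ear (adjusted p = 0.00107), the second not called without HDM ear mice 1, 2, 5 and 7 (-0.29, adjusted p = 0.346). Zfp746, known as PARIS, was at the threshold in back skin (-0.74 ± 0.26, adjusted p = 0.0496) and was not called under 4 of 7 alternatives. The human counterparts of Zfp711, Zfp618 and Zfp827 bind PHF8, UHRF2 and NuRD, and Zfp568 represses Igf2 in placenta. None of these 4 was called in HDM against sham, with ear differences of 0.56 ± 0.26, -0.58 ± 0.35, -0.53 ± 0.22 and -0.68 ± 0.29. The ZMYND8 partners Zfp532, Zfp592 and Zfp687 were not called either, with ear differences of -0.50 ± 0.22, 0.14 ± 0.24 and -0.30 ± 0.20.

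Of 3 KRAB genes known to restrain retroelements, 2 were lower in ear, against 34.6% of the family and 15.5% of all rows. Zfp809, which silences proviruses that use the proline tRNA primer, was 9.31, 10.62 and 11.33 in HDM ear, against 11.44, 11.57 and 12.04 in sham ear, without overlap (-1.08 ± 0.21, adjusted p = 0.000184). Zfp932 had 9.65, 10.42 and 11.18 in HDM ear, against 10.43, 11.23 and 11.73 in sham ear (-0.75 ± 0.18, adjusted p = 0.00184). On the other 4 HDM ear arrays against sham ear, Zfp809 was called at -0.83 and Zfp932 was not (-0.43, adjusted p = 0.196). Zfp819 was near background and not called (-0.23 ± 0.16). In back skin none of the 3 was called, with differences of -0.53, -0.28 and -0.25.

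Zfp593 and Zfp622, whose yeast relatives act on the large ribosomal subunit before it is complete, and Zfp598, the ubiquitin ligase that marks collided ribosomes, went otherwise. Zfp593 had 5.05, 5.42 and 6.49 in HDM ear, against 3.63, 4.48 and 5.96 in sham ear, where 1 of 8 arrays was above background. It rose by 1.04 ± 0.27 (adjusted p = 0.00272), and the groups overlapped. The call was lost with values under background raised to it (0.29, adjusted p = 0.219) and without HDM ear mice 1, 2, 5 and 7 (0.85, adjusted p = 0.0836). Zfp598 was the 1 gene higher in HDM back, at 7.60, 8.01 and 8.42, against 7.08, 7.48 and 7.75 in sham back (0.55 ± 0.14, adjusted p = 0.00701). In ear its difference was 0.24 ± 0.14 (adjusted p = 0.224). Zfp622 was not called, at -0.22 ± 0.18 in ear and 0.33 ± 0.18 in back skin. The other genes higher in HDM ear were Zfp710 (0.73 ± 0.18, adjusted p = 0.0014), Zfp600 (0.55 ± 0.20, adjusted p = 0.0333), Zfp777 (0.55 ± 0.20, adjusted p = 0.0378), Zfp719 (0.48 ± 0.18, adjusted p = 0.0374) and Zfp706 (0.42 ± 0.12, adjusted p = 0.00641). Of the 6, Zfp710 alone was called without HDM ear mice 1, 2, 5 and 7, at 0.68.

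Zfp536, a neural regulator, and Zfp541, a germline gene of meiosis, lay at the floor. Zfp541 was below background on all 32 arrays. Zfp536 was below background on all HDM back arrays and above it on 4 of 8 sham back arrays, so that its call in back skin (adjusted p = 0.00391) carries no fold. That call was lost with values raised to background (adjusted p = 0.681), and the gene was not tested with dim rows left out.

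Partner genes of these proteins did not move one way. Over all rows, 15.5% were lower and 16.4% higher in HDM ear, and 8.56% and 6.18% in HDM back. Of 14 measured genes of the KRAB corepressor list, 3 were lower in HDM ear, Atrx (-1.41), Atf7ip (-1.02) and Smarcad1 (-0.60), and 2 higher, Uhrf1 (2.07) and Dnmt1 (0.99). Trim28 itself was not called at either site. In back skin Atf7ip was lower (-0.65) and Dnmt1 higher (0.63). Of 4 measured HUSH genes, Tasor (-1.48) and Mphosph8 (-0.64) were lower and Pphln1 (0.38) higher in ear. Of 12 measured NuRD genes, 5 were higher and 2 lower in ear, and 1 each way in back skin. Of 8 other partners, Ehmt1, Wiz, Nipbl and Phf8 were lower in ear and Ctbp2 higher.

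The effect in ear was set against that in back skin by the interaction term. It was lower in ear for 6 genes (3.35%) and higher for none, against 3.37% and 6.77% of all rows. The family's share of lower calls was thus that of all rows. The median was -0.15, against -0.01 over all rows. Zfp949 stood out, with -1.94 in ear and -0.05 in back skin, a difference of -1.90 ± 0.44 (adjusted p = 0.00472). In back skin Zfp949 had 9.10, 9.91 and 10.94 in HDM, against 9.40, 10.08 and 10.42 in sham, and the sham values lay within the HDM range. Zfp976 (-1.59 ± 0.37, adjusted p = 0.00521), Zfp871 (-0.98 ± 0.29, adjusted p = 0.0254) and Zfp825 (-0.90 ± 0.30, adjusted p = 0.0494) followed. Zfp658 was also called (-0.92 ± 0.20, adjusted p = 0.00341), with at most 4 of 8 arrays of a group above background, so that its size is uncertain. The sixth call, Zfp648 (adjusted p = 0.00577), carries no size: the gene was below background on all HDM ear, HDM back and sham back arrays and above it on 5 of 8 sham ear arrays. With background in place of its HDM ear values, Zfp648 was at least 1.32-fold lower in HDM ear than in sham ear. Mean background was itself 4.82 in HDM ear and 5.20 in sham ear, so the bound holds this difference of floors too and is uncertain. Without HDM ear mice 1, 2, 5 and 7 Zfp658 alone of the 6 was called (-0.84, adjusted p = 0.0304), with Zfp949 at -1.07 (adjusted p = 0.0896) and Zfp976 at -1.29 (adjusted p = 0.0699). Zfp667 was then called higher (1.21 ± 0.30, adjusted p = 0.0164), and over all rows 1.37% were lower and 3.7% higher.

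Between the sham groups, the 2 sites differed in both directions. Sham ear was higher than sham back in 24 genes and lower in 20, against 15.6% and 14.1% of all rows. The median was 0.01, against 0.04 over all rows. With array medians made equal, 34 genes were higher and 15 lower, against 22.8% and 11.1% of all rows, and the median of all rows was 0.16. Zfp521 had 9.90, 10.11 and 10.87 in sham ear, against 6.99, 7.67 and 8.63 in sham back, a difference of 2.50 ± 0.29 (adjusted p = 2.93e-08). Zfp609 was higher in sham ear by 1.76 ± 0.23 (adjusted p = 4.66e-07), with sham back at 11.86, 12.16 and 12.73. Zfp949 was higher by 1.66 ± 0.31 (adjusted p = 7.68e-05) and Zfp516 by 1.11 ± 0.20 (adjusted p = 4.9e-05). Higher without overlap were 6 of 179 genes, a share under the 4.4% of all rows: Zfp516, Zfp521, Zfp609, Zfp648, Zfp949 and Zfp959. Lower without overlap were 4 of 179, a share under the 4.14% of all rows: Zfp597, Zfp667, Zfp781 and Zfp800. Zfp597 had 5.93, 6.50 and 6.82 in sham ear, against 7.38, 7.86 and 8.29 in sham back (-1.40 ± 0.18, adjusted p = 3.54e-07). Zfp648 was at least 1.42-fold higher in sham ear than in sham back. This bound is uncertain, since mean background was itself 5.20 in sham ear and 4.72 in sham back.

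In HDM skin 16 genes were higher in ear and 34 lower, against 16.8% and 11.2% of all rows, with a median of -0.12, against 0.03. Without HDM ear mice 1, 2, 5 and 7 the counts were 18 and 14, against 14.8% and 9.62% of all rows, with the median at 0.02. Zfp976 differed by -2.29 ± 0.26 between HDM ear and HDM back (adjusted p = 3.37e-08). Zfp521 stayed higher in ear (1.90 ± 0.29, adjusted p = 4.01e-06), and so did Zfp707 (1.41 ± 0.19, adjusted p = 8.32e-07), with 8.42, 9.05 and 9.79 in HDM ear, against 6.90, 7.57 and 8.19 in HDM back. Zfp706 and Zfp707 were higher without overlap, against 4.22% of all rows, and Zfp800 and Zfp976 lower, against 3.7%. With 2 of 179 genes each way, both shares lay under those of all rows. Zfp949, at 9.67 ± 0.95 in HDM ear and 9.91 ± 0.69 in HDM back (SD, n = 8 each), was not called there (-0.24 ± 0.31, adjusted p = 0.633).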

How the data were processed

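Expression was measured on 32 arrays (HDM and sham, back skin and ear, 8 mice each) from 100 ng RNA per sample, after at least 18 hours in RNAlater. Per the submitters' processing notes, the authors used RMA and the Transcriptome Analysis Console, and the deposited values are the resulting log2 levels. RMA corrects background, normalizes quantiles and summarises probes. Versions and build: not given in the sources used here. The range of 1.71 to 19.93 is wide for RMA, and whether values were rescaled could not be told; if so, log2 differences are not true ones. The series names the array as Clariom D, and whether the table holds all of its rows is unknown. Precision is limited by how many arrays there are.

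Of 28846 rows, 6640 controls were left out. The fit was limma's lmFit and eBayes (version 3.58.1; R 4.3.3) with a mean per group over all 32 arrays and no block, with two-sided tests and 32.1 degrees of freedom. p-values were Benjamini-Hochberg adjusted over 22206 rows per comparison, and ± after a difference is its SE from 1 spread pooled over the groups. Nothing says the samples are separate animals across sites, so p-values measure the spread between these samples. A gene below the negative control median on all 8 arrays of a group has only a bound there, and "at least" sets background in its place. For an array group the 3 values are the lowest, the median and the highest of 8. Names come from the platform annotation; all 179 genes matched RefSeq, which was used for neighbours and promoters.

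Named genes were, per comparison, the 8 widest calls each way whose higher group lay above background, genes on role lists and the brightest and dimmest gene; genes without overlap, genes lower at both sites and Zfp658 were added after their values were seen. Members and lists were chosen with earlier results of these data known. The fit was tested on simulated data. Alternatives were equal array medians, no dim rows, a floor at background, trended and robust eBayes, fits on the compared groups or array weights, a replicate block, and leaving out sham back mice 1 and 2; leaving out HDM ear mice 1, 2, 5 and 7 was added after the data were seen.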

Additional observations from a re-analysis of the deposited data

Results flagged for a closer look

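Over the named genes, 7 of 232 groups of 8 arrays held a value far from the rest by Dixon's test at the 95% level, which chance gives in about 1 of 20 groups. Zfp568 was at 4.85 on sham ear mouse 3, with the nearest other array at 6.22. Zfp583 was at 5.65 on the same array, with the next at 4.65. On sham ear mouse 1, Zfp598 was at 8.23, with the next at 7.79, and Zfp810 at 9.36, with the next at 8.66. In HDM ear, Zfp710 was at 8.78 on mouse 6 (next 9.26), Zfp810 at 7.81 on mouse 7 (next 8.27) and Zfp992 at 9.95 on mouse 5 (next 10.63).

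The HDM effect differed between ear and back skin by the interaction term for 4 named genes measured at both sites. Over the whole family this term called 3.35% lower in ear, against 3.37% of all rows. The difference, ear minus back skin, was -1.90 for Zfp949 (limma adjusted p = 0.00472), -1.59 for Zfp976 (adjusted p = 0.00521), -0.98 for Zfp871 (adjusted p = 0.0254) and -0.90 for Zfp825 (adjusted p = 0.0494). Without HDM ear mice 1, 2, 5 and 7 these were -1.07, -1.29, -0.39 and -0.30, and none was called. Zfp976 was above background on 2 of 8 HDM ear arrays, so that its size is uncertain.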

How the results depend on the processing

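Counts not named here stayed within 1.5 times of the reported ones. In back skin 37 genes were lower with the compared groups fitted alone (9.45% of all rows), against 24 with all arrays (8.56%). With array medians equal 16 were lower (6.27%), and the median of all rows moved to 0.13. In ear 111 were lower with values raised to background, against 62; the floor itself averages 4.82 in HDM ear and 5.20 in sham ear, and 55% of all rows were then lower, with a median of -0.38. Without HDM ear mice 1, 2, 5 and 7, which leaves 4 arrays there, 17 were lower (4.2% of all rows) and 1 higher (7.32%) in ear. In that fit 14 genes were lower in HDM ear than in HDM back (9.62%). For the difference of effects, 1 gene was higher with dim rows left out (11.7% of all rows) and 4 with values raised (10.4%). The count was 1 with array weights (5.9%) and 1 without mice 1, 2, 5 and 7 (3.7%). Lower genes were 12 with medians equal (5.9% of all rows), 43 with values raised (44.1%) and 1 without these mice (1.37%). Sham ear was higher in 58 genes with values raised to background (54.6% of all rows), and with medians equal the share of higher among called genes was 69.4%, against 54.5%.

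Of 105 named values, 734 repeats gave 680 on the same side of the threshold with the same sign, 36 no longer called, 13 newly called and 5 of the other sign. None of the 5 was called by the reported fit: Zfp532 in back skin at -0.022 without sham back mice 1 and 2, Zfp541 with values raised at 0.12 in back skin and -0.38 in ear, and, without the 4 HDM ear arrays, Zfp541 at -0.049 and Zfp750 at 0.10 in ear. Zfp541 is below background on all 32 arrays, so that its raised values hold the floors alone; for the others the cause was not tested. Same-numbered arrays correlated at -0.14 to 0.14, and 3 of 32 pairs were closest. Some of these pairs set HDM against sham, and the others compare 2 sites. They show no pairing, but cannot exclude that a number is 1 animal at both sites. With a replicate block 30 genes were lower and 1 higher in back skin, against 8.73% and 5.98% of all rows. In ear 56 were lower and 4 higher, against 13.3% and 14.7%. The other 3 comparisons kept their counts. Signal near background limits 69 genes that are not above it on every array.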
